A study of Capra hircus with 20 samples.

Results

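The hypothalamus libraries of 20 female Jining grey goats were sorted by their level of PDYN, the gene of prodynorphin, and all other genes were compared between the sorted libraries. The libraries were chosen by their measured PDYN value alone. The goats were killed at 1 day (D1), 60 days (M2), 120 days (M4) or 180 days (M6) after birth, with 5 goats per stage and 1 library per goat. All were of one breed, were kept under the same feeding and management, and carried no treatment or transgene. A library was called PDYN-high at 10 FPKM or more and PDYN-low at 4 FPKM or less, where FPKM counts the sequenced fragments of a gene per length of its exons and per mapped reads of the library. This put 10 of the 20 libraries in the PDYN-high class and 9 in the PDYN-low class, and 1 library lay between the classes and entered no test. The classes come from a measured value and are not groups of the study, so a p value here compares libraries sorted on PDYN. Each library was made from tissue labelled hypothalamus. The limits of the dissection are not given in the sources used here.

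Prodynorphin is the precursor of the dynorphins, opioid peptides that act mainly on the kappa opioid receptor. In the mammalian forebrain it is known from projection neurons of the striatum that carry the D1 dopamine receptor, from magnocellular vasopressin neurons of the paraventricular and supraoptic nuclei, and from arcuate neurons that also make kisspeptin and neurokinin B and act on GnRH release. These neurons lie in different places, and the striatum lies outside the hypothalamus. The comparison asked which neuron types and regions the PDYN-rich tissue pieces held. In bulk tissue, fewer cells of a type and less RNA per cell cannot be told apart.

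PDYN (gene 100860866, between 52472264 and 52486248 of chromosome 13 in ARS1.2) was highest at 128 FPKM in D1 replicate 4 and lowest at 0.877 FPKM in D1 replicate 5. At M2 it was 100.4 FPKM in replicate 4, 13.8 in replicate 5, 3.51 in replicate 3, 2.52 in replicate 2 and 1.02 in replicate 1. Every stage held both classes, where D1 and M6 had 3 PDYN-high and 2 PDYN-low libraries, M2 had 2 and 3, and M4 had 2 of each. The values nearest the limits were 12.8 FPKM in M4 replicate 2 and 13.8 in M2 replicate 5 among the PDYN-high libraries, and 3.51 in M2 replicate 3 and 3.29 in M6 replicate 1 among the PDYN-low. The library between them was M4 replicate 1, at 6.83 FPKM. Replicate 4 had the highest PDYN of its stage at all 4 stages. The labels do not say what a replicate number marks. With the replicate number as a block 0 genes were called, and the smallest adjusted p was 0.129 (limma). The replicate 4 libraries were all PDYN-high, so this block leaves no class contrast within them. The 0 calls cannot tell an effect of the replicate number from this loss. The PDYN values chose the classes and are given as a description.

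**Figure D1:**
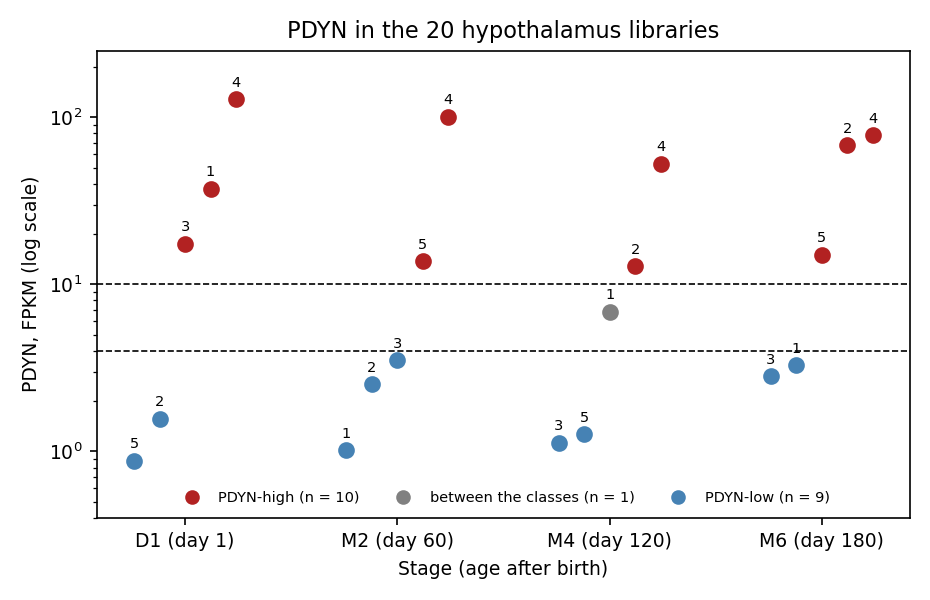
PDYN in FPKM (log axis) in each of the 20 libraries by stage, with the replicate number above each point and dashed lines at 10 and 4 FPKM. Each stage holds PDYN-high libraries (red) and PDYN-low libraries (blue), and the only library between the lines is M4 replicate 1, at 6.83 FPKM.

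The libraries differed in more than PDYN. The summed level of 15 genes of neurons in general, among them SNAP25, SYT1 and RBFOX3, ran from 1003 to 2019 FPKM in the PDYN-high class and from 159 to 1636 FPKM in the PDYN-low class, and no defining gene was at 0 in any library. The low end of the PDYN-low class was M6 replicate 3, with SNAP25, a synaptic vesicle fusion protein, at 39.2 FPKM, and M2 replicate 1, with SNAP25 at 68.1 FPKM, against 239 FPKM or more in every other library. The summed level of 11 oligodendrocyte genes ran from 313 to 4998 FPKM in the PDYN-high class and from 1163 to 4931 FPKM in the PDYN-low class. The most abundant gene took 23.9% of all FPKM in M2 replicate 3, where it was KLHDC1, and between 2.54% and 11.7% in the other libraries. KLHDC1 was also the most abundant gene in M6 replicate 3, at 9.83%. The 3 libraries of lowest mapping rate, M2 replicate 1, M2 replicate 3 and M6 replicate 3, were all PDYN-low. The part of these differences in the results was not tested, but fits that carry the neuron or the oligodendrocyte level are given beside the calls. Across the genes, Pearson's r between 2 libraries on the log2(FPKM + 0.1) scale was at a median of 0.920 for the 45 PDYN-high pairs, 0.883 for the 36 PDYN-low pairs and 0.897 for the 90 mixed pairs. The PDYN-high libraries also differed among themselves, with pairs from 0.870 to 0.962.

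Of the 16736 genes tested with limma on log2(FPKM + 0.1), with stage as a covariate, 3 passed an adjusted p of 0.05 with a log2 difference of at least 1, and all 3 were higher in the PDYN-high class. They were LHX2, VIP and TMEM158, which is 0.0179% of the genes tested, and 0 genes (0%) were called lower. At an unadjusted p under 0.05 there were 2156 genes higher (12.9%) and 818 lower (4.89%) in the PDYN-high class, 17.8% in all. The counts of list members given below at this cutoff stand beside these shares of all genes. At an adjusted p under 0.1 there were 219 genes higher and 24 lower. The median log2 difference of all genes tested was 0.08. The 3 calls depended on the libraries and on the model. Without M4 replicate 4, a PDYN-high library, 235 genes were called, 211 higher and 24 lower. With the neuron level or the oligodendrocyte level added to stage, 0 genes were called, the smallest adjusted p was then 0.218 or 0.243, and 1439 or 1258 genes had an unadjusted p under 0.05. Leaving out any 1 of 8 libraries also gave 0 calls. A gene entered the test when it reached 0.1 FPKM in 5 or more libraries. Of the genes tested, 420 (2.51%) did so in 5 PDYN-high libraries but not in 5 PDYN-low libraries, so they entered through the PDYN-high class alone, and 178 (1.06%) entered through the PDYN-low class alone. LHX2 and VIP were among the 420 and TMEM158 was not.

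LHX2, a LIM homeodomain transcription factor of forebrain development, lies between 94640045 and 94659024 of chromosome 11. Its level was 4.16 FPKM in D1 replicate 4, between 0.151 and 0.805 FPKM in the other 9 PDYN-high libraries, and at most 0.0791 FPKM in the PDYN-low libraries, where 6 of 9 were listed at 0. Every PDYN-high library was above every PDYN-low library. The fitted difference was 2.56 ± 0.37 (SE) on the log2(FPKM + 0.1) scale (limma, adjusted p = 0.0236). No PDYN-low library reached 0.1 FPKM, so LHX2 entered the test through the PDYN-high libraries alone, and with no filter its adjusted p was 0.0133 (limma). It ranged from 1.77 at M4 to 2.98 at D1 within stages. Since most PDYN-low values are 0, the size depends on the pseudocount, and it was 0.73 with log2(FPKM + 1), where LHX2 was not called.

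VIP encodes vasoactive intestinal peptide, a neuropeptide of the suprachiasmatic nucleus and of some cortical interneurons, and lies between 76980560 and 76989565 of chromosome 9. In the PDYN-high class its lowest, median and highest levels were 0.114, 2.41 and 5.69 FPKM. In the PDYN-low class they were 0, 0.0406 and 0.267 FPKM. The classes overlapped only through M6 replicate 5, at 0.114 FPKM, and 9 of the 10 PDYN-high libraries were above every PDYN-low library. The fitted difference was 3.63 ± 0.59 (SE) on the log2 scale (limma, adjusted p = 0.0482), and it was positive at all 4 stages, from 1.95 at M6 to 4.82 at D1. With no filter VIP did not pass (limma, adjusted p = 0.107). VIP was by far highest in the library between the classes, M4 replicate 1, at 55.5 FPKM.

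TMEM158, which encodes a membrane protein and lies between 54005488 and 54007303 of chromosome 22, had levels from 1.93 to 14.3 FPKM in the PDYN-high class, with a median of 7.01, and from 1.02 to 2.06 FPKM in the PDYN-low class, with a median of 1.49. The overlap was again a single PDYN-high library, M4 replicate 4, at 1.93 FPKM. The fitted difference was 2.02 ± 0.33 (SE) on the log2 scale (limma, adjusted p = 0.0482), and by stage it ran from 1.64 at M4 to 2.33 at M2.

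In 10 genes (0.0598%) the FPKM of all PDYN-high libraries lay above those of all PDYN-low libraries, and in 0 genes (0%) below. They are named here after their values were seen. Besides LHX2 they were SEZ6, a neuronal membrane protein, CNIH2 and CACNG4, auxiliary subunits of AMPA-type glutamate receptors, AK5, an adenylate kinase of the brain, DMTN, an actin-binding protein, the small GTPase RAB40B, the kinase PDPK1, STOML1 and FAM131A. SEZ6 was between 2.88 and 7.48 FPKM in the PDYN-high class and between 0.888 and 2.87 FPKM in the PDYN-low class. AK5 was between 9.13 and 55.2 FPKM against 4.01 and 8.90 FPKM. Other than LHX2 these genes did not pass the adjusted p, which was between 0.062 and 0.12 (limma).

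**Figure D2:**
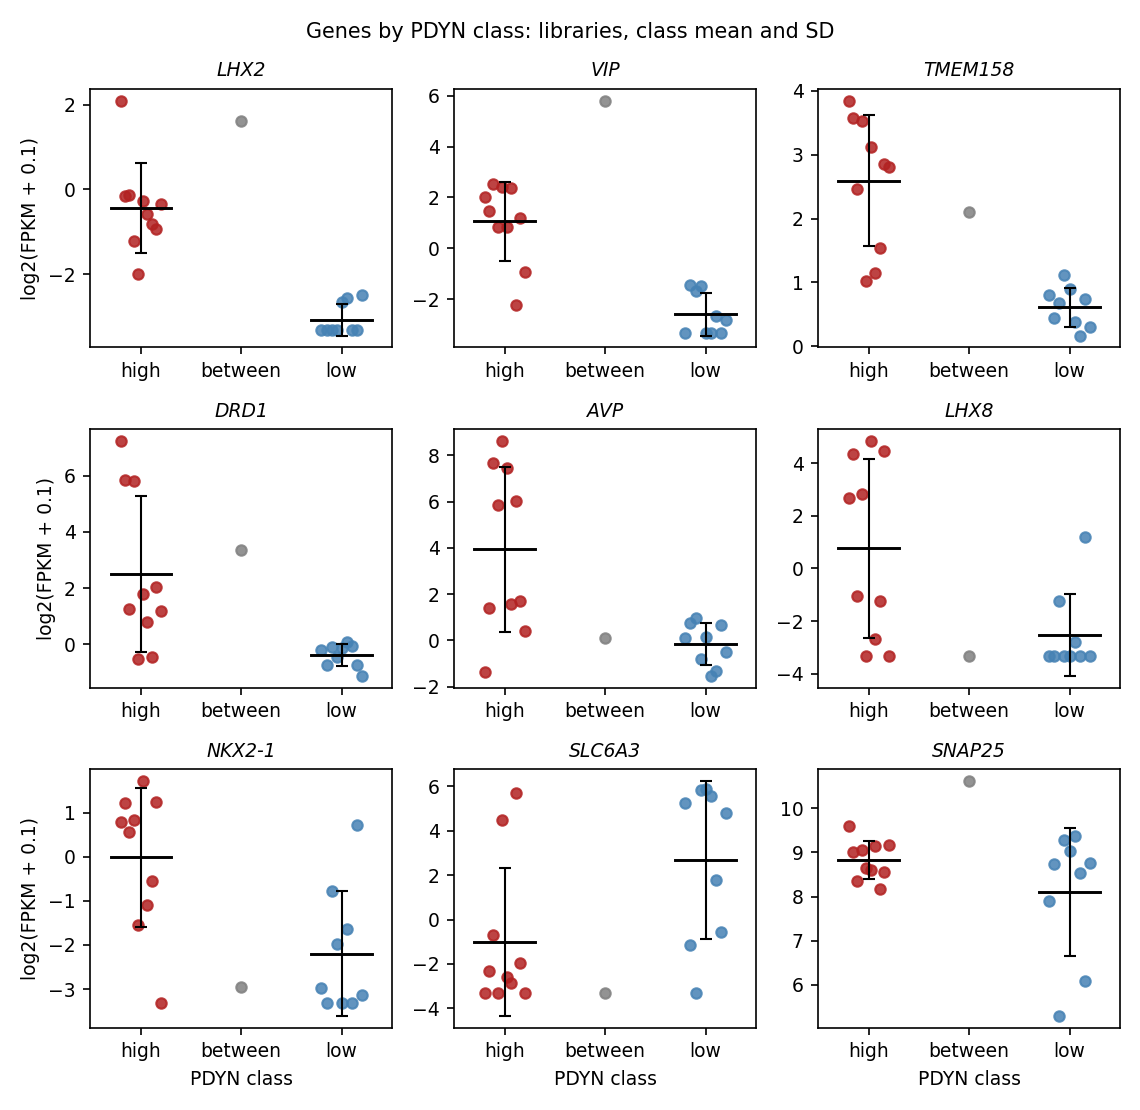
log2(FPKM + 0.1) of 9 genes in the 10 PDYN-high libraries (red), the library between the classes (grey) and the 9 PDYN-low libraries (blue), with the class mean (line) and SD over libraries (bars). LHX2, VIP and TMEM158 separate the classes nearly or fully, while DRD1, AVP and LHX8 are high in only 3 to 5 PDYN-high libraries and SLC6A3 is above 20 FPKM in 2 PDYN-high and 5 PDYN-low libraries.

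Most striatal genes were highest in 3 PDYN-high libraries. DRD1, the D1 dopamine receptor of direct-pathway striatal neurons, was 150.6 FPKM in D1 replicate 4, 57.2 in M2 replicate 4 and 56.4 in M6 replicate 2. In the other 7 PDYN-high libraries it was between 0.601 and 3.99 FPKM, and in the PDYN-low class between 0.361 and 0.953 FPKM. Its fitted difference was 2.92 ± 0.88 (SE) on the log2 scale and did not pass (limma, adjusted p = 0.12).

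The same 3 libraries carried many, but not all, of the other genes of striatal projection neurons. Of the 32 genes of the list, 29 had a positive log2 difference and 3 a negative one. SERTM1 was highest at 18.5 FPKM in M4 replicate 3 of the PDYN-low class, and FOXP2 at 25.5 FPKM in M4 replicate 2. TAC1, the precursor of substance P, was 461, 118 and 281 FPKM in D1 replicate 4, M2 replicate 4 and M6 replicate 2, and at most 24.7 FPKM in any other library of the 2 classes. PPP1R1B, the dopamine-regulated phosphatase inhibitor DARPP-32, was 226, 48.1 and 101.5 FPKM in those libraries and at most 5.95 FPKM elsewhere in the classes. ADORA2A, the adenosine receptor of indirect-pathway neurons, was 56.9, 10.7 and 18.7 FPKM, against at most 1.07 FPKM. PENK, the precursor of the enkephalins and also a gene of indirect-pathway neurons, was 202, 50.5 and 66.5 FPKM, but it was also 34.8 FPKM in M6 replicate 4 and 23.3 FPKM in D1 replicate 1. DRD2, the D2 dopamine receptor, differed little, with 0.248 to 3.56 FPKM in the PDYN-high class and 0.0442 to 2.33 FPKM in the PDYN-low class. These 3 libraries thus held RNA of genes from both striatal output pathways.

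Of the 32 striatal genes, all of which were tested, 0 were called, 14 were higher at an unadjusted p under 0.05 and 0 were lower. Of the 32, 2 entered the test through the PDYN-high class alone. The median log2 difference of the list was 1.197, against 0.08 for all genes. In D1 replicate 4, 27 of the 32 genes were above the highest PDYN-low library, in M6 replicate 2, 24 were, and in M2 replicate 4, 22 were. This is 84.4%, 75% and 68.8% of the list, where 23.3%, 8.56% and 15.7% of all genes tested in those libraries were above the highest PDYN-low library. In M4 replicate 4, 1 of the 32 (3.12%) was, where 7.93% of all genes were, and in M6 replicate 4, 9 were (28.1%), where 16.9% of all genes were. The 3 libraries were set apart by DRD1, a gene of this list, after the data were seen. A lower list median without them follows in part from that choice. Without the 3 libraries the median of the list was 0.30, and 0 genes were called among all genes tested. PDYN itself was 52.7 and 77.8 FPKM in M4 replicate 4 and M6 replicate 4, where DRD1 was 0.601 and 2.32 FPKM.

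**Figure D3:**
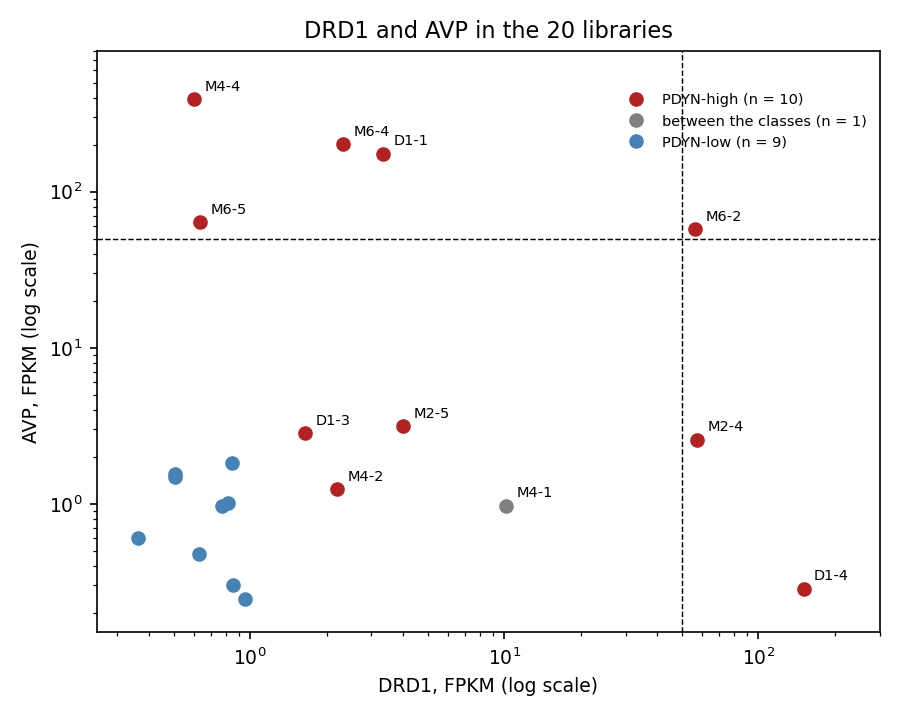
DRD1 against AVP in FPKM (log axes) in the 20 libraries, with dashed lines at 50 FPKM. Of the 10 PDYN-high libraries (red), 3 are above 50 FPKM of DRD1 and 5 above 50 FPKM of AVP, M6 replicate 2 is above both, and all 9 PDYN-low libraries (blue) are below 2 FPKM of either gene.

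The vasopressin and oxytocin genes marked another set of PDYN-high libraries. AVP, the precursor of vasopressin, was 392.1 FPKM in M4 replicate 4, 201 in M6 replicate 4, 175.5 in D1 replicate 1, 64.0 in M6 replicate 5 and 57.7 in M6 replicate 2. It was between 0.286 and 3.15 FPKM in the other 5 PDYN-high libraries and between 0.246 and 1.83 FPKM in the PDYN-low class. The fitted difference was 3.89 ± 1.05 (SE) on the log2 scale and did not pass (limma, adjusted p = 0.102). OXT, the precursor of oxytocin, lies next to AVP on chromosome 13 and was above 10 FPKM in the same 5 libraries, with 413 FPKM in M6 replicate 4, 279 in M6 replicate 5, 86.3 in M4 replicate 4, 36.9 in M6 replicate 2 and 22.6 in D1 replicate 1. The order of the libraries differed between the hormones, with AVP highest in M4 replicate 4 and OXT highest in M6 replicate 4. In the other libraries OXT was at most 4.47 FPKM, in M2 replicate 1 of the PDYN-low class. Within stages its log2 difference was 1.83 (D1), -2.41 (M2), 4.88 (M4) and 6.78 (M6). On leaving out a library the fitted difference of OXT was 1.74 to 3.35 and did not pass (limma, adjusted p from 0.213 to 0.516).

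SIM1 and OTP, transcription factors of the neuroendocrine hypothalamus named here after their values were seen, were 13.6 and 11.1 FPKM in M6 replicate 4 and 7.39 and 4.21 FPKM in M4 replicate 4. TRH, thyrotropin-releasing hormone of the paraventricular nucleus, was 55.0 FPKM in M6 replicate 4 and 20.7 FPKM in M4 replicate 2, and at most 4.58 FPKM in the PDYN-low class. CRH, corticotropin-releasing hormone, was low everywhere, at 0.1002 to 3.65 FPKM in the PDYN-high class and 0 to 0.109 FPKM in the PDYN-low class, with 9 of 10 PDYN-high libraries above every PDYN-low library (limma, adjusted p = 0.0682). Of the 10 genes of the magnocellular and paraventricular list, all tested, 0 were called, 4 were higher and 0 lower at an unadjusted p under 0.05, and the median log2 difference was 1.72. In M6 replicate 4, 9 of the 10 genes (90%) were above the highest PDYN-low library, and in D1 replicate 1, 8 (80%) were, against 16.9% and 16.2% of all genes tested. CRH and 1 other gene of the list entered the test through the PDYN-high class alone. The AVP-rich libraries were set apart by AVP, a gene of this list, after the data were seen. A lower list median without them follows in part from that choice. Without these 5 libraries the median of the list was 0.61. In all, 11 genes were then called, 7 higher and 4 lower, and VIP was the only one of the 3 calls among them. DRD1 or AVP was above 50 FPKM in 7 of the 10 PDYN-high libraries and in 0 of the 9 PDYN-low libraries.

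The PDYN-high libraries outside both sets were D1 replicate 3, M2 replicate 5 and M4 replicate 2, at 17.4, 13.8 and 12.8 FPKM of PDYN. M2 replicate 5 carried genes of the cholinergic neurons of the basal forebrain, which lies in front of the hypothalamus. LHX8, a transcription factor of these neurons that was chosen after its values were seen, was 22.1 FPKM there, and also 28.5 FPKM in D1 replicate 1, 20.3 in M2 replicate 4, 7.06 in M6 replicate 2 and 6.28 in D1 replicate 4. In the PDYN-low class it was at most 2.17 FPKM. All 8 genes of the cholinergic list were tested, 0 were called, 6 were higher and 0 lower at an unadjusted p under 0.05, and their median log2 difference was 1.56. In M2 replicates 4 and 5 and in D1 replicate 1, 7 of the 8 (87.5%) were above the highest PDYN-low library, against 15.7%, 5.89% and 16.2% of all genes tested. Of the 8, 5 entered the test through the PDYN-high class alone. CHAT, which makes acetylcholine, was the exception to this count, since M4 replicate 3 of the PDYN-low class had 6.002 FPKM. That library also had 2.70 FPKM of SLC5A7 and 1.02 FPKM of SLC18A3 from the same list, while LHX8 was at 0.

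M4 replicate 2 carried genes of the thalamus, which lies above and behind the hypothalamus. TCF7L2, a transcription factor of thalamic neurons, was 86.3 FPKM there and 32.6 FPKM in D1 replicate 3, and between 3.85 and 21.1 FPKM in the other libraries of the classes. GBX2, a thalamic transcription factor chosen after its values were seen, was 18.2 FPKM in M4 replicate 2 and at most 4.14 FPKM elsewhere. Of the 12 genes of the thalamus and habenula list, 7 (58.3%) were above the highest PDYN-low library in M4 replicate 2 and 4 (33.3%) in D1 replicate 3, against 15.3% and 14.2% of all genes tested. Other lists had shares as large in these libraries. In M4 replicate 2, 60% of the ependymal and tanycyte list was above. In D1 replicate 3 the share was 50% for that list, 50% for the suprachiasmatic list and 46.7% for the general neuron list. Over the whole class TCF7L2 did not separate the libraries, with a log2 difference of 0.24 ± 0.42 (SE) (limma, adjusted p = 0.791). Of the 11 genes of the list that were tested, 3 were higher and 0 lower at an unadjusted p under 0.05, and the median was 0.31. Of the 11, 1 entered the test through the PDYN-high class alone.

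Genes of the arcuate nucleus, where PDYN is known beside kisspeptin and neurokinin B, varied from library to library. TAC3, the precursor of neurokinin B, was 25.3 FPKM in M2 replicate 4, 12.6 in M6 replicate 4, 6.04 in D1 replicate 1 and 5.15 in M2 replicate 5, at most 1.98 FPKM in the other 6 PDYN-high libraries, and at most 0.634 FPKM in the PDYN-low class. Its log2 difference was 2.87 ± 0.78 (SE) (limma, adjusted p = 0.102). KISS1, the kisspeptin gene, was at most 0.839 FPKM, was at 0 in 6 PDYN-high and 8 PDYN-low libraries, and did not pass the filter on low values. AGRP, the appetite peptide, was 21.7 FPKM in D1 replicate 3 and at most 1.36 FPKM in every other library.

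NPY, a second peptide of the AGRP neurons that is also made by interneurons, was 14.9 FPKM in D1 replicate 3 and 10.3 FPKM in D1 replicate 4, with 0 to 14.9 FPKM in the PDYN-high class and 0 to 2.09 FPKM in the PDYN-low class. POMC, the precursor of melanocortins and of beta-endorphin, overlapped fully, at 0.707 to 4.38 FPKM against 0.191 to 5.63 FPKM, with a log2 difference of 0.42 ± 0.41 (SE). Of 15 arcuate genes 13 were tested, 0 were called, 3 were higher and 0 lower at an unadjusted p under 0.05, and their median log2 difference was 0.42. The 3 are 23.1% of those tested, where 12.9% of all genes tested were higher and 4.89% lower. Of the 13, 2 entered the test through the PDYN-high class alone. In M6 replicate 4, 8 of the 15 genes (53.3%) were above the highest PDYN-low library, where 16.9% of all genes tested were. In D1 replicate 3, 5 (33.3%) were, where 14.2% of all genes were. In the other PDYN-high libraries 1 to 4 of the 15 were. The summed level of the list was 168.7 FPKM in M6 replicate 4 and at most 54.4 FPKM in the PDYN-low class.

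Genes of the lateral hypothalamus followed single libraries of both classes. PMCH, the precursor of melanin-concentrating hormone, was 375 FPKM in M6 replicate 5 and 303 FPKM in D1 replicate 1, but also 61.4 FPKM in M6 replicate 3 of the PDYN-low class, and at most 3.37 FPKM in the others. HCRT, the orexin precursor, was 183 FPKM in M6 replicate 5, 19.5 in M2 replicate 1 of the PDYN-low class, 12.7 in M6 replicate 4 and 9.02 in D1 replicate 1. Neither gene differed between the classes beyond its error, with log2 differences of 0.20 ± 1.51 (SE) for PMCH and 0.45 ± 1.302 for HCRT. Of 9 genes of the lateral and dorsomedial list 7 were tested, and 0 had an unadjusted p under 0.05.

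NKX2-1, a transcription factor that specifies much of the ventral hypothalamus and is also kept by some basal forebrain neurons, was between 0 and 3.17 FPKM in the PDYN-high class, with a median of 1.504, and between 0 and 1.53 FPKM in the PDYN-low class, with a median of 0.0272. It was at 0 in M4 replicate 2 of the PDYN-high class and in 3 PDYN-low libraries, so this marker of the labelled tissue was listed at 0 in libraries of both classes. Its log2 difference was 2.27 ± 0.59 (SE) (limma, adjusted p = 0.0944). Of 13 broad hypothalamic factors and genes, 12 were tested, 0 were called, 7 were higher and 0 lower at an unadjusted p under 0.05, and the median log2 difference was 1.250. Of the 12, 5 entered the test through the PDYN-high class alone. The 7 included DLX1, DLX5 and DLX6, factors of GABA neurons in the hypothalamus and the striatum alike. They also included PEG3, MAGEL2 and RELN, which are not transcription factors of a hypothalamic nucleus alone.

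The suprachiasmatic, ventromedial, preoptic and mammillary lists held 0 to 2 members each at an unadjusted p under 0.05. Of 10 suprachiasmatic genes all were tested, VIP was the 1 call, 2 were higher at an unadjusted p under 0.05 and 0 lower, and the median log2 difference was 0.54. In D1 replicate 3 and in M6 replicate 4, 5 of the 10 (50%) were above the highest PDYN-low library. Of all genes tested, 14.2% and 16.9% were above it there. In the other PDYN-high libraries 0 to 4 of the 10 were. In the ventromedial list 2 of 7 tested genes were higher and the median was 0.56, and in the preoptic list 2 of 7, GNRH1 and NTS, and the median was 0.69, with 0 genes lower in either. GNRH1, the gene of gonadotropin-releasing hormone, was 14.6 FPKM in M2 replicate 4 and 7.96 FPKM in D1 replicate 1, and at most 1.19 FPKM in any other library. NTS, the neurotensin precursor, was 355 FPKM in D1 replicate 4, 151 in M2 replicate 4 and 101 in M6 replicate 2, the libraries with the highest DRD1, and at most 12.8 FPKM in the PDYN-low class (limma, adjusted p = 0.062). In the mammillary list 0 of 7 tested genes were higher and 0 lower, and the median was -0.62. Higher members were 20% of the suprachiasmatic list and 28.6% of the ventromedial and the preoptic lists, where 12.9% of all genes tested were higher. In the suprachiasmatic list 2 genes, among them VIP, and in the preoptic list 2 entered the test through the PDYN-high class alone. In the mammillary list 2 entered through the PDYN-low class alone, and in the ventromedial list 1 through each.

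**Figure D4:**
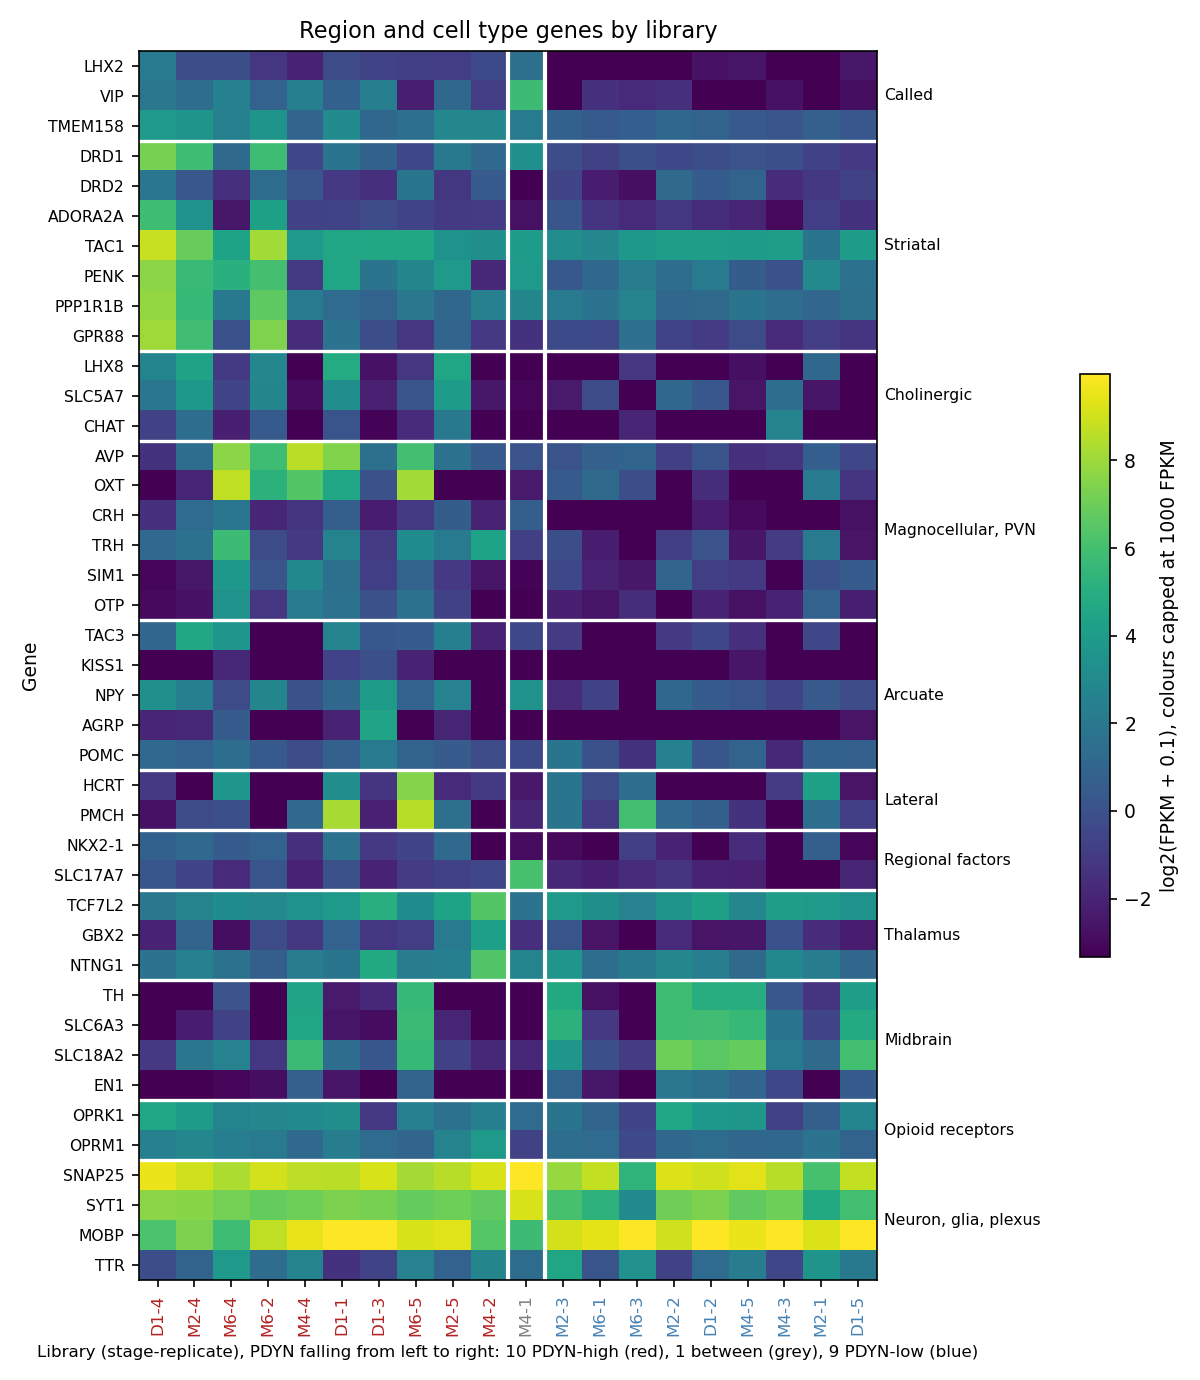
log2(FPKM + 0.1) of genes of regions and cell types in the 20 libraries, ordered by falling PDYN, with PDYN-high labels in red, the library between in grey and PDYN-low in blue. Striatal genes other than DRD2 are high in D1 replicate 4, M2 replicate 4 and M6 replicate 2, AVP and OXT in 5 PDYN-high libraries, and midbrain dopamine genes in 5 PDYN-low and 2 PDYN-high libraries.

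Among the cortical genes SLC17A7 was low in both classes and CAMK2A was not. SLC17A7, the vesicular glutamate transporter of cortical projection neurons, was between 0.147 and 1.07 FPKM in the PDYN-high class and between 0 and 0.304 FPKM in the PDYN-low class, with a log2 difference of 1.34 ± 0.39 (SE) (limma, adjusted p = 0.111). It was 68.0 FPKM in the library between the classes, M4 replicate 1. Of 16 cortical genes 14 were tested, 0 were called, 7 were higher and 0 lower at an unadjusted p under 0.05, and the median log2 difference was 1.17. Among the 7 was CAMK2A, a kinase of many forebrain neurons, which was between 7.03 and 66.1 FPKM in the PDYN-high class and between 3.77 and 19.5 FPKM in the PDYN-low class. The summed level of the list was between 19.5 and 139.9 FPKM in the PDYN-high class and between 17.2 and 41.8 FPKM in the PDYN-low class. Of the 14 genes tested, 3 entered through the PDYN-high class alone. In M4 replicate 1, 14 of the 16 (87.5%) were above the highest PDYN-low library, where 21.2% of all genes tested were. In the PDYN-high libraries 0 to 8 of the 16 were, where 5.89% to 23.3% of all genes were. Of 7 interneuron genes 4 were higher and 0 lower, with a median of 1.37, and of 6 dentate granule cell genes 1 was higher and 0 lower, with a median of 0.45. The dentate count is 16.7%, where 12.9% of all genes tested were higher. Of the interneuron genes 1 entered through the PDYN-high class alone, and of the dentate genes 1 through the PDYN-low class alone.

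Genes of midbrain dopamine neurons, which lie behind the hypothalamus, had the lowest median of all 29 lists. SLC6A3, the dopamine transporter, chosen after its values were seen, was 59.2 FPKM in D1 replicate 2, 56.3 in M2 replicate 2, 47.1 in M4 replicate 5, 37.3 in M2 replicate 3 and 27.6 in D1 replicate 5, all PDYN-low libraries. In the PDYN-high class it was 52.3 FPKM in M6 replicate 5 and 22.6 FPKM in M4 replicate 4, and at most 0.52 FPKM in the other 8. The other 4 PDYN-low libraries were at 3.31 FPKM or less. TH, tyrosine hydroxylase of all catecholamine neurons, was above 10 FPKM in the same 7 libraries. All 8 genes of the list had a negative log2 difference, with a median of -1.78, 3 were lower at an unadjusted p under 0.05 (SLC6A3, EN1 and NR4A2), and 0 were called. The direction was not the same at every stage. At M6 the difference was positive for every gene of the list but NR4A2, with 3.81 for TH and 2.80 for SLC6A3. At D1 these 2 genes were at -7.01 and -8.26, and every gene of the list was negative. Of the 8, 4 entered the test through the PDYN-low class alone. The summed level of the list was between 1.69 and 196 FPKM in the PDYN-high class and between 2.05 and 320 FPKM in the PDYN-low class. Without the 7 libraries with SLC6A3 above 20 FPKM the median log2 difference of the striatal list was 1.43 and that of the magnocellular list 1.49, and 0 genes were called.

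Among the receptors on which dynorphin and the other opioid peptides act, OPRK1, the kappa receptor, was high in libraries of both classes. It was 23.3 FPKM in D1 replicate 4 but 22.1 FPKM in M2 replicate 2 of the PDYN-low class, and lowest at 0.362 FPKM in D1 replicate 3 of the PDYN-high class. Its log2 difference was 0.77 ± 0.75 (SE) (limma, adjusted p = 0.608). OPRM1, the mu receptor, was between 1.93 and 14.6 FPKM in the PDYN-high class and between 0.673 and 3.24 FPKM in the PDYN-low class, with 7 of 10 PDYN-high libraries above every PDYN-low library, and a log2 difference of 1.23 ± 0.32 (SE) (limma, adjusted p = 0.0933). Of the 7 opioid peptide and receptor genes other than PDYN, all tested, 0 were called, 4 (PENK, PNOC, OPRM1 and OPRL1) were higher and 0 lower at an unadjusted p under 0.05, and the median log2 difference was 1.21.

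The enzymes and granule proteins that make peptides from precursors were also mostly on the higher side. PCSK2, a convertase known to cut prodynorphin, was between 3.05 and 20.9 FPKM in the PDYN-high class and between 0.586 and 9.19 FPKM in the PDYN-low class, with a log2 difference of 1.53 ± 0.40 (SE) (limma, adjusted p = 0.0945). Of 11 such genes, all tested, 8 were higher and 0 lower at an unadjusted p under 0.05, 0 were called, and the median log2 difference was 0.91. With the neuron level in the fit the median was 0.45. Of the 15 general neuron genes 9 were higher and 0 lower at an unadjusted p under 0.05, and their median was 0.96, close to that of the peptide-processing list.

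Oligodendrocyte genes lay on the lower side. MOBP, a protein of the myelin sheath chosen after its values were seen for the largest difference in the list, was between 56.6 and 1499 FPKM in the PDYN-high class and between 511 and 1663 FPKM in the PDYN-low class, with a log2 difference of -1.53 ± 0.58 (SE) (limma, adjusted p = 0.186). The lowest values in the classes were 56.6, 74.2 and 87.7 FPKM in M6 replicate 4, D1 replicate 4 and M4 replicate 2, all PDYN-high. All 11 tested oligodendrocyte genes had negative differences, with a median of -1.09, and 9 were lower at an unadjusted p under 0.05, while 0 were called. Of 8 progenitor genes 2 were lower and 0 higher, with a median of -0.34.

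The remaining lists covered glia, vessels, linings and neighbouring tissues. Of 10 astrocyte genes 2 were higher and 0 lower, with a median of -0.15, and of 11 microglial and 10 endothelial genes 0 had an unadjusted p under 0.05, with medians of -0.04 and -0.16. The astrocyte count is 20%, where 12.9% of all genes tested were higher. Of 10 ependymal and tanycyte genes 5 were higher, with a median of 0.93, among them FOXJ1, a factor of ciliated cells, and CRYM, which striatal neurons also carry. Of these 10, 3 entered the test through the PDYN-high class alone. Of 5 meningeal collagen and matrix genes 4 were lower, with a median of -0.99. TTR, the main secreted protein of the choroid plexus, was between 0.279 and 14.3 FPKM against 0.506 and 23.0 FPKM, and the log2 difference was -0.43 ± 0.71 (SE). In the choroid plexus list 2 of 6 tested genes were lower and 0 higher, with a median of -0.49. Of 4 tested pituitary genes and 2 tested blood genes 0 had an unadjusted p under 0.05, with medians of 0.28 and -0.14, and of 9 immediate early genes 3 were higher and 0 lower, with a median of 0.34. Of the pituitary genes 1 and of the immediate early genes 1 entered the test through the PDYN-high class alone.

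**Figure D5:**
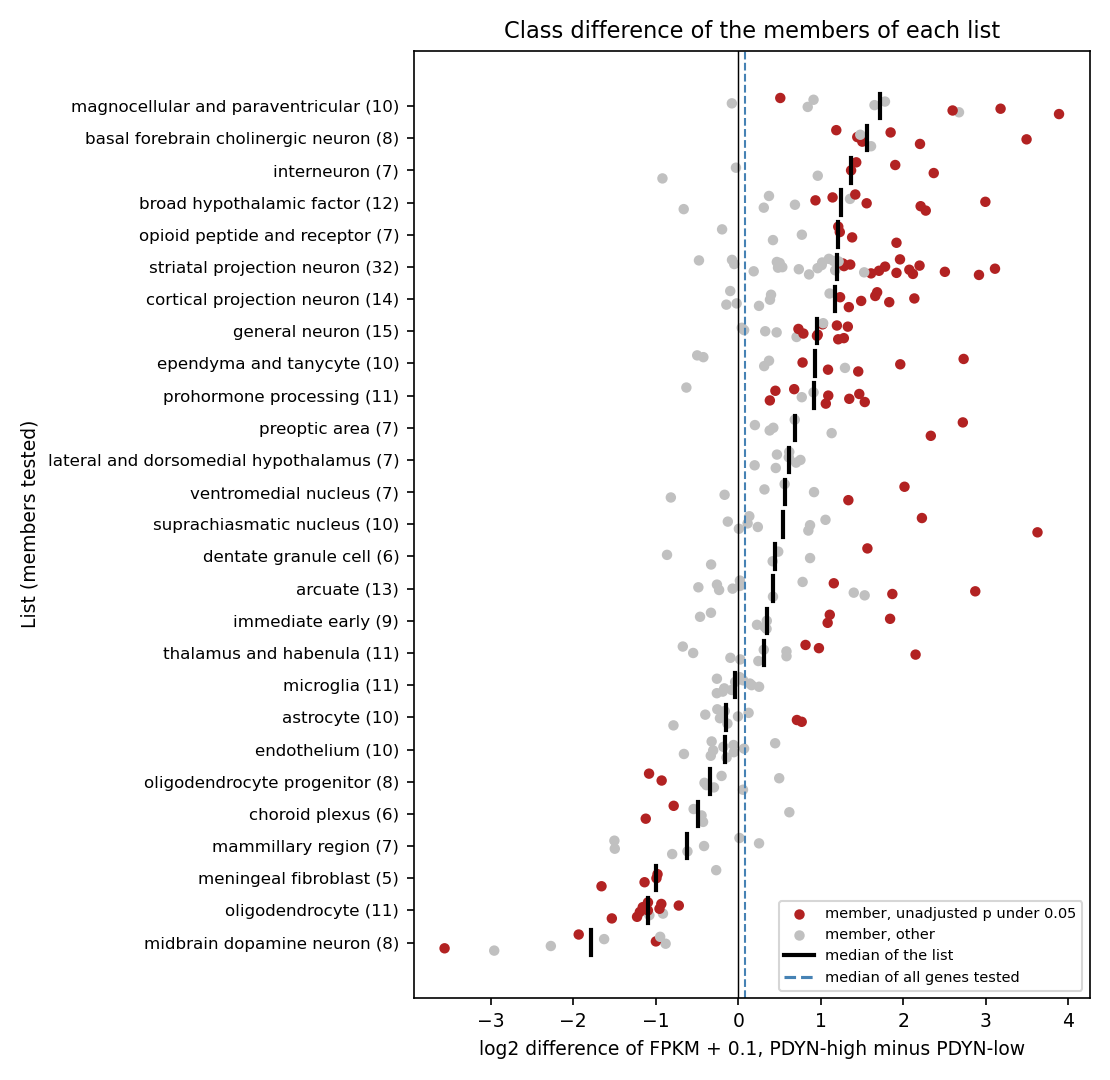
log2 difference (PDYN-high minus PDYN-low, on FPKM + 0.1) of each tested member of the lists with 5 or more tested members, with the list median (black bar), members at an unadjusted p under 0.05 (red) and the median of all genes tested (dashed). Medians reach 1.72 on the right, in the magnocellular list, while the oligodendrocyte, meningeal, mammillary and midbrain dopamine lists lie to the left, with medians down to -1.78.

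The class difference was also compared between the newborn and the later stages. With a term for the class difference at D1 against that at M2, M4 and M6, 0 of the 16736 genes were called by limma and 141 had an unadjusted p under 0.05. That is a smaller share than the 0.05 of genes that this cutoff passes where no gene differs. With 3 PDYN-high and 2 PDYN-low libraries at D1, 0 calls do not show that the class difference was alike. SLC6A3, picked for its values, was -8.26 (D1), -5.62 (M2), -3.08 (M4) and 2.80 (M6) within stages. With the later stages alone, 7 libraries stood in each class and 0 genes were called. Within stages the log2 difference of DRD1 was 3.89 (D1), 4.40 (M2), 0.34 (M4) and 2.62 (M6), and M4 was the stage in which no PDYN-high library had DRD1 above 50 FPKM. By stage the number of libraries per class is 2 or 3, and the difference at M4 was not tested on its own.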

How the data were processed

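The deposited values are FPKM per gene, which the authors calculated from strand-specific libraries depleted of rRNA. Reads were trimmed with fastp, aligned with HISAT2 2.0.5 to the goat genome and assembled with StringTie 1.3.3b, per the labels and the methods of the study. FPKM keeps no read counts here, so depth per value is unknown and precision rests on the spread between libraries. The summed FPKM was between 260199 and 377479 per library. The members and the lists were chosen with earlier results of these data known.

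The 21071 genes were named by matching gene identifiers to RefSeq annotation of ARS1.2, and 461 had no symbol. Of these, genes that reached 0.1 FPKM in 5 or more of the 19 libraries were fitted as log2(FPKM + 0.1) with limma 3.58.1 in R 4.3.3, with stage and class as terms and a variance trend. PDYN was left out. Benjamini-Hochberg adjustment ran over all 16736 genes tested. Calls needed an adjusted p under 0.05 and a log2 difference of at least 1. Fold changes on this scale understate those of low genes. The fit was tested on simulated data with independent noise for each gene. Such data hold no shared differences in tissue content like those between the real libraries. The genes named are the calls, the called list members and, whatever their result, a set of genes of PDYN neurons and of neighbouring regions, of which PRL had no matching symbol. A further gene of this set and some list members, left out of list counts and sums, are not reported here. Other list members named as examples were chosen after their values were seen. Lists are described by counts and medians, with no test. The alternatives were another pseudocount, other filters and scalings, variances without a trend, library weights, other covariates, the replicate number as a block, PDYN as a continuous term, other sets of libraries and leaving out each library in turn. 3 alternatives without the DRD1-rich, AVP-rich or SLC6A3-rich libraries were chosen after the data were seen. Mapping rates for 1 covariate came from the study's supplement. Figures were drawn with matplotlib 3.10.9.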

Additional observations from a re-analysis of the deposited data

Results flagged for a closer look

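Among 25 named genes, 50 groups of PDYN-high or PDYN-low libraries were examined for a library far from the others of its class, where chance gives about 1 such group in 20, and 5 were found. That rate was not checked for FPKM values, some of which are 0 in most libraries of a class. The 5 are therefore given as a description, not as more than chance. In the PDYN-high class LHX2 was 4.16 FPKM in D1 replicate 4, AGRP was 21.7 FPKM in D1 replicate 3, and OPRK1 was 0.362 FPKM in D1 replicate 3, in each case with a wide gap to the next library. In the PDYN-low class AGRP was 0.0603 FPKM in D1 replicate 5, the only library of the class above 0, and OPRM1 was 0.673 FPKM in M6 replicate 3, which is also the library with the lowest SNAP25, at 39.2 FPKM.

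The library between the classes, M4 replicate 1, entered no comparison. It had VIP at 55.5 FPKM and SLC17A7 at 68.0 FPKM, above every other library, which had at most 5.69 FPKM of VIP and 1.07 FPKM of SLC17A7. LHX2 was 2.93 FPKM there, and the oligodendrocyte list summed to 195.6 FPKM, below every library of either class.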

How the results depend on the processing

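The number of called genes, 3 with all of them higher, stayed at 3 without stage as a covariate and with the adjusted p alone, and moved under the other choices named here. It was 0 with a pseudocount of 1, a filter on a mean of 1 FPKM, the mapping rate, the oligodendrocyte level or the neuron level as a covariate, PDYN-high against all other libraries, the later stages only, without the 3 libraries of lowest mapping rate, without the 3 DRD1-rich and without the 7 SLC6A3-rich libraries. The 3 libraries of lowest mapping rate were all PDYN-low. The smallest adjusted p was 0.104 with the mapping rate as a covariate and 0.229 without these 3 libraries (limma). The number called was 1, higher, without a filter, with quantile normalization, median-ratio scaling or no variance trend. Library quality weights gave 59, with 52 higher and 7 lower, and PDYN as a continuous term gave 35, with 34 higher and 1 lower, and both included the 3 calls. Without the 5 AVP-rich libraries there were 11, with 7 higher and 4 lower. Leaving out each library in turn gave 0 to 235 calls, 0 to 211 higher and 0 to 24 lower, with the most without M4 replicate 4. There were 0 in 8 of 19, without D1 replicate 2 or 5, M2 replicate 1, 3, 4 or 5, or M6 replicate 3 or 4, and 1 without D1 replicate 1, D1 replicate 4 or M6 replicate 2. It gave 22 without D1 replicate 3, 13 without M4 replicate 5 and 6 without M6 replicate 1. The cause of these changes was not tested. Called members of the striatal list were 0 in the fit given, 1 with quality weights, 3 with continuous PDYN and 0 to 1 on leaving out a library, and of the magnocellular list 0, 2 with quality weights and 0 to 2 on leaving out a library. The difference between D1 and later stages gave 0 calls, 1 without a filter, 1 without the DRD1-rich libraries and 0 to 1 on leaving out a library. LHX2 was called in 19 of 39 alternatives, VIP in 12 of 40 and TMEM158 in 8 of 40, and their log2 differences were positive in all of them, at 0.73 to 2.92, 1.61 to 4.01 and 1.58 to 2.496. The median of all genes was between -9.6e-05 and 0.10.

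With the replicate block 0 genes were called, the smallest adjusted p was 0.129 (limma), and with the block and the mapping rate together 0 were called. The replicate 4 libraries were all PDYN-high, so the block leaves no class contrast within them. Deviations from stage means had a median correlation of -0.011 over 30 pairs with the same number, and 0.0046 over 120 pairs with different numbers. The same-number pairs ran from -0.25 to 0.43, and 7 were over 0.1. In 0 libraries was the same number the best match at every other stage, a strict rule that few libraries could meet. By the medians, libraries of the same number were no more alike than others, but pairing of single numbers was not tested.

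Signs turned for genes that were not called. OPRK1 was -0.15 with quality weights, -0.55 with the replicate block, -0.55 with the block and the mapping rate, and -0.11 without the AVP-rich libraries. HCRT was -0.047 with the oligodendrocyte level, -0.35 with continuous PDYN, -0.52 in later stages, -0.59 without the AVP-rich and -2.31 without the SLC6A3-rich libraries, and -0.17 to 1.06 on leaving out a library. PMCH was -0.44 with continuous PDYN, -0.17 in later stages, -1.36 without the AVP-rich and -2.17 without the SLC6A3-rich libraries, and -0.65 to 0.93 on leaving out a library. TCF7L2 was -0.026 with the neuron level, -0.25 with continuous PDYN and -0.087 to 0.46 on leaving out a library. TTR was 0.26 with the neuron level, 0.26 in later stages, 0.51 without the libraries of lowest mapping rate and 0.32 without the SLC6A3-rich libraries. POMC was -0.00496 with the neuron level and -0.029 with the block and the mapping rate, and OXT was -1.09 without the AVP-rich libraries. List medians turned for pituitary (-0.12 without a filter), oligodendrocyte (0.029 with its own level as a covariate), ventromedial (-0.34 with the neuron level), dentate (-0.13 without the AVP-rich libraries), and choroid plexus and blood (0.085 and 0.97 without the SLC6A3-rich libraries). Read counts behind the FPKM are unknown, so values near 0 carry no limit of detection.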
